A study of Homo sapiens with 6 samples.

Results

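The natriuretic peptide system was read from 14 array features that carry the names of 7 loci, out of 45033 features that stand for 23611 gene names. The loci are the peptide genes NPPA (2 features), NPPB (1 feature) and NPPC (3 features), the receptor genes NPR1 (1 feature), NPR2 (4 features) and NPR3 (2 features), and C5orf23 (1 feature), a locus listed next to NPR3. Features were taken by the gene name in the deposited tables. NPR3 and C5orf23 had been seen to differ between the groups in these same arrays and led to the choice of the family, so the differences given for the 14 features describe these arrays and carry no test.

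The cells were HCC-LM3, a human hepatocellular carcinoma line known for spreading when grafted into mice. In the shASPP2 group (n = 3) they were given a lentivirus whose shRNA targets ASPP2, which the gene TP53BP2 encodes. In the shNon group (n = 3) they were given a virus with a control shRNA, so all 6 samples had been through lentiviral infection. RNA was taken a week after infection from separate cultures, 1 culture for each array. The labels name 1 shRNA and 1 line, and a loss of ASPP2 cannot be told apart here from other effects of that shRNA.

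Atrial natriuretic peptide (ANP, from NPPA) and brain natriuretic peptide (BNP, from NPPB) are heart hormones that bind the receptor NPR1, and C-type natriuretic peptide (CNP, from NPPC) is a local factor that binds NPR2. Both receptors are membrane guanylyl cyclases: they make cyclic GMP, which acts through cGMP-dependent kinases, cGMP-regulated phosphodiesterases and ion channels. NPR3 binds all of these peptides, has no cyclase domain, and is best known for taking peptide into the cell for breakdown. It is also described as a receptor that acts through inhibitory G proteins, and it binds osteocrin, the product of OSTN. The system is studied mainly in heart, kidney, vessels, fat and cartilage.

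NPR3 and C5orf23 were the members that stood apart, and the sequences before the start of NPR3 are shown because NPR3 is the receptor the values below turn on. RefSeq on GRCh38.p14 gives NPR3 a pair of start sites on chromosome 5, plus strand, 19777 bases apart. The table held such windows for 5 of the 7 names, with entries for NPR1, NPR2, NPR3, NPPA and NPPC. The 250 bases before each NPR3 start follow, with matches to the searched motifs in capitals.
NPR3 upstream start, chr5:32690622-32690871: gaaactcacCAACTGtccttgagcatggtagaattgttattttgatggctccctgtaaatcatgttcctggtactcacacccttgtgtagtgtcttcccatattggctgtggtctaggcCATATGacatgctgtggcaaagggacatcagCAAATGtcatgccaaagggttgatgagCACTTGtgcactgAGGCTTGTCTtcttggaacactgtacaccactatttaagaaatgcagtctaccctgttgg
NPR3 downstream start, chr5:32710399-32710648: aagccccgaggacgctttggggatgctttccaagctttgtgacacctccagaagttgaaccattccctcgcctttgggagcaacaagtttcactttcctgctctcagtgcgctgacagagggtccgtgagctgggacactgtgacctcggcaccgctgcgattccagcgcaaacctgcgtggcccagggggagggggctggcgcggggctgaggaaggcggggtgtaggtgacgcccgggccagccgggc
The searched motifs were the TATA box TATAAA, the GC box GGGCGG, the E-box CANNTG and the p53 half-site, each on both strands, and no match overlapped another. The upstream window held 4 E-boxes and 1 p53 half-site between bases 60 and 51 before the start. The downstream window held 0 matches to these motifs. E-boxes were found in 61.82%, GC boxes in 42.64%, TATA boxes in 10.72% and p53 half-sites in 5.57% of 35116 windows of the same length. The windows also differ in base composition: the upstream one is 45.6% G and C with 0 CpG, and the downstream one 64.0% with 16 CpG, against a median of 58.0% G and C over all windows. Such matches are letters in a window and were not measured as sites, and the array does not say from which start the NPR3 signal came.

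The arrays were of even brightness, with median intensities between 111 and 122 and 58.9% to 60.9% of features above 2 times the level of 2508 random-sequence probes. That level was 30.6 ± 0.170 in shASPP2 and 32.6 ± 0.752 in shNon (SD, n = 3 each). It is used below as the level of unspecific signal. TP53BP2 had 228, 216 and 147 in shASPP2, against 332, 488 and 452 in shNon, with a log2 difference of -1.11 (SE 0.25, limma adjusted p = 0.203 over all features). Its second feature had -1.41 (SE 0.21, limma adjusted p = 0.0991), and on both the groups did not overlap. Among 9 hepatocyte markers, HNF4A, KRT8 and KRT18 were bright on all arrays and ALB was just above 2 times the random-probe level. AFP, APOA1, APOB, TTR and SERPINA1, which encode further plasma proteins of hepatocytes, were below that mark on most arrays. AFP was above it on 2 shASPP2 arrays only. APOB, TTR and SERPINA1 were above it on 1 shASPP2 array each, and APOA1 on 1 shNon array. The summed level of the 9 was 22960 to 27670 in shASPP2 and 16900 to 18770 in shNon, and most of it came from KRT8 and KRT18. On 5 of the 9 leading features (HNF4A, KRT8, KRT18, TTR and SERPINA1) the shASPP2 arrays were higher without overlap, and on 1 (ALB) they were lower without overlap. Of the leading features of all genes, 18.8% had no overlap in either direction. The other KRT18 features overlapped between the groups (0.05, -0.15 and 0.04 log2), and the other HNF4A features ran from 0.29 to 1.37 log2. The other ALB and SERPINA1 features overlapped too, and were below 2 times the random-probe level on most or all arrays. Limma called 0 of the 9 over all features, where 0.14% of the leading features of all genes were called. An unadjusted p under 0.05 was found for 4 of the 9 (HNF4A, KRT8, TTR and SERPINA1), all higher in shASPP2, and for 11.7% of the leading features of all genes. Among these 4, TTR and SERPINA1 were below 2 times the random-probe level on all shNon arrays. The summed level, mostly of KRT8 and KRT18, was higher in shASPP2, as NPR3 was, and its part in the NPR3 values was not tested. The precision of every value is limited by the number of arrays, and the depth of a count does not apply. In bulk RNA, fewer expressing cells and less RNA per cell cannot be told apart.

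NPR3, the clearance receptor, gave a higher signal in shASPP2 on both of its features. The first (M59305, chromosome 5, 32747296 to 32822300, hg18) read 748, 869 and 728 in the 3 shASPP2 arrays, against 227, 236 and 266 in the 3 shNon arrays. All shASPP2 arrays lay far above all shNon arrays, and neither group spread by more than 1.19-fold. The means were 781 ± 76.2 in shASPP2 and 243 ± 20.7 in shNon (SD, n = 3 each), a log2 difference of 1.68 (SE 0.18, 95% interval 1.27 to 2.09), or 3.21-fold.

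The second NPR3 feature (NM_000908, 32747421 to 32823013) was more scattered. It read 514, 336 and 327 in shASPP2, against 101, 79.0 and 129 in shNon, again with no overlap. The log2 difference was 1.93 (SE 0.27, 95% interval 1.31 to 2.55), or 3.81-fold. Both NPR3 features were above 2 times the random-probe level on all 6 arrays, so that these folds were read between measured signals on both sides. A summary by RMA still draws dim values together, and the shNon values of the second feature, about 3.14 times the random-probe level, are the ones this touches most.

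C5orf23 is the array's name for a short locus that begins 1687 bases beyond the end of the longer NPR3 feature (NM_024563, chromosome 5, 32824701 to 32827576, hg18). It read 758, 477 and 656 in shASPP2, against 139.8, 161 and 177 in shNon. The lowest shASPP2 array was well above the highest shNon array. The means were 630 ± 142 in shASPP2 and 159.5 ± 18.9 in shNon (SD, n = 3 each), with a log2 difference of 1.96 (SE 0.23, 95% interval 1.43 to 2.49), or 3.90-fold.

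The current RefSeq gene table has no entry for the gene identifier that the array pairs with C5orf23, and it lists C5orf23 among the synonyms of NPR3. Under that naming the feature belongs to NPR3, and the 3 features are not described here as separate genes. Their differences of 1.68, 1.93 and 1.96 log2 have intervals that overlap.

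Within arrays the 3 features did not keep a fixed ratio. The second NPR3 feature minus the first was -0.54, -1.37 and -1.15 log2 in shASPP2 (SD 0.43), against -1.18, -1.58 and -1.05 in shNon (SD 0.28). C5orf23 minus the first NPR3 feature was 0.02, -0.87 and -0.15 log2 in shASPP2, against -0.70, -0.55 and -0.59 in shNon. The SD was 0.47 in shASPP2 and 0.08 in shNon. In both of these pairs shASPP2 array 2, the highest on the first NPR3 feature, had the lowest ratio of the shASPP2 arrays. C5orf23 minus the second NPR3 feature averaged 0.69 ± 0.27 log2 in shASPP2 and 0.66 ± 0.32 in shNon (SD, n = 3 each).

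**Figure D1:**
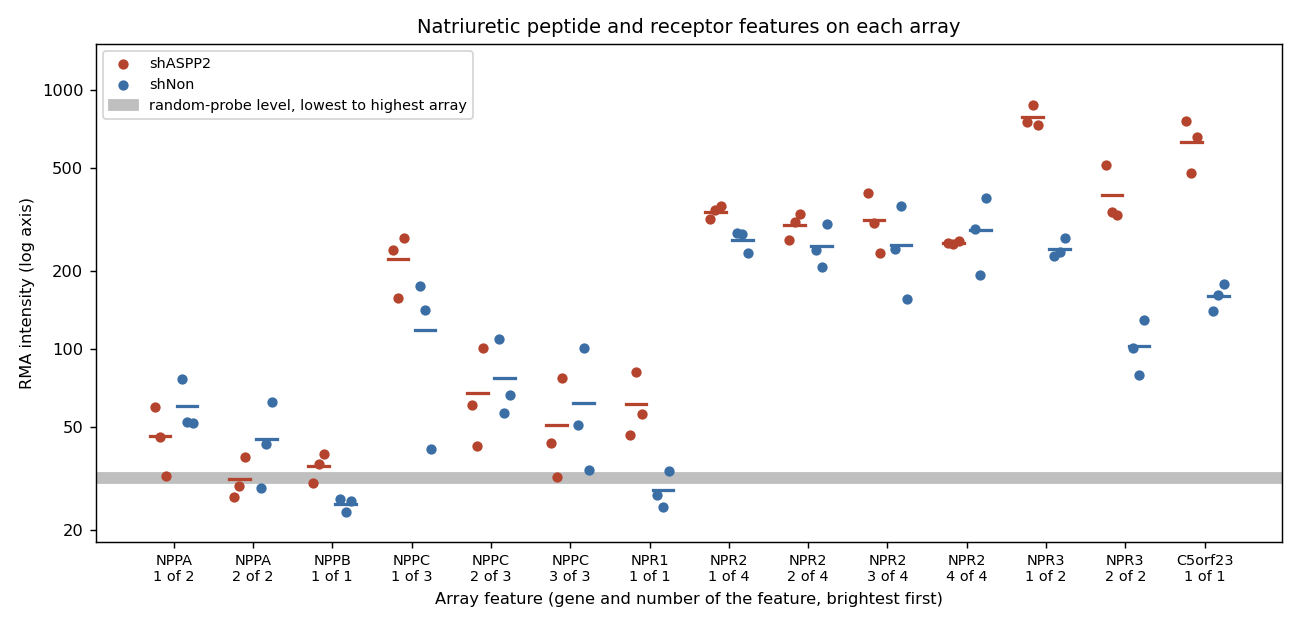
RMA intensity (log axis) of the 14 features on each array, shASPP2 in red and shNon in blue, with horizontal bars for group means over 3 arrays and a grey band for the random-probe level. The 2 NPR3 features and C5orf23 show separated groups well above the band, with C5orf23 means of 630 in shASPP2 and 159.5 in shNon, while NPPA, NPPB and NPR1 lie near the band.

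NPR1, the cyclase receptor for ANP and BNP, was at the level of random probes in control cells. Its only feature (NM_000906, chromosome 1, 151917736 to 151933088, hg18) read 46.5, 81.0 and 55.9 in shASPP2, against 27.3, 24.5 and 33.6 in shNon. The groups did not overlap, but only shASPP2 array 2 was above 2 times the random-probe level. No difference or fold is given, because the shNon arrays hold only a bound, and the shASPP2 mean of 61.1 is below the mean floor of 65.1 that the dim group would be set to.

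NPR2, the cyclase receptor for CNP, was measured well above random probes, since all of its 4 features (chromosome 9, 35782405 to 35799728, hg18) were above 2 times their level on all 6 arrays. The leading one (NM_000907) read 317, 342 and 355 in shASPP2, against 279, 278 and 233 in shNon. The groups did not overlap, and the log2 difference was 0.36 (SE 0.17, 95% interval -0.04 to 0.77). The other features of NPR2 overlapped between the groups.

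On NM_003995 the values were 262, 309 and 331 in shASPP2, against 240.0, 206 and 304 in shNon (log2 difference 0.28, SE 0.21). On BC096341 they were 397, 307 and 234 in shASPP2, against 243, 355 and 155 in shNon (0.36, SE 0.34). On BC096342 they were 257, 253 and 260.3 in shASPP2, against 289, 193 and 380 in shNon (-0.11, SE 0.26). Without shNon array 3 that difference was 0.12, and without shNon array 2 it was -0.37, so its sign rests on 1 array. The difference on BC096341 was 0.06 without shNon array 3. The 4 features of NPR2 thus gave differences from -0.11 to 0.36 log2, each with an interval that includes 0. The 3 features of SPAG8, a sperm-associated antigen gene that overlaps NPR2 in hg18, averaged 28.6 to 54.0 in shASPP2 and 43.3 to 65.6 in shNon (n = 3 each), with limma adjusted p-values of 0.490, 0.921 and 0.672.

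**Figure D2:**
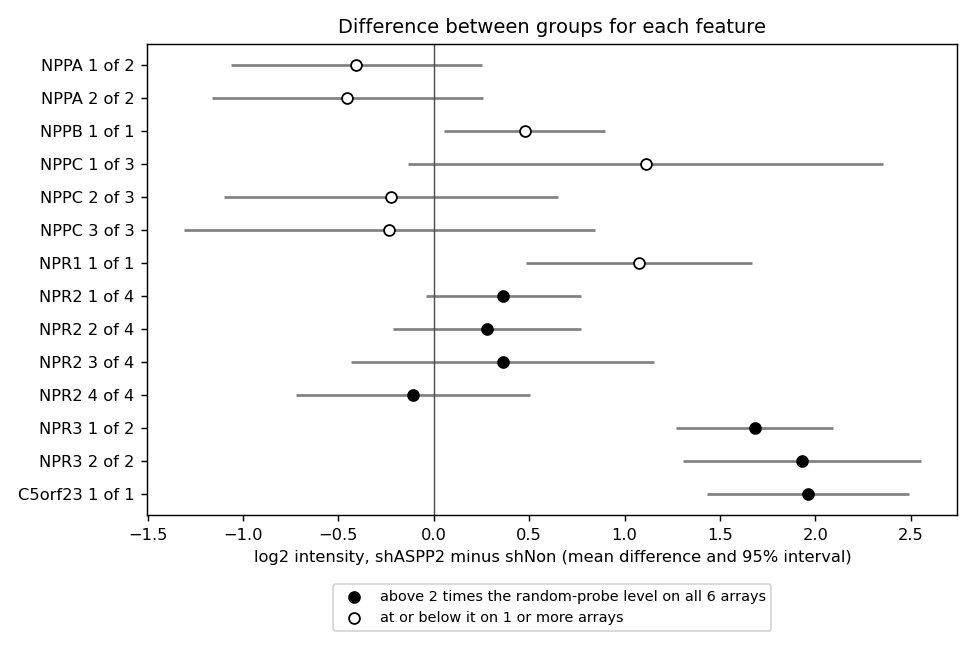
Log2 intensity in shASPP2 minus shNon for each of the 14 features, with 95% intervals from the fit over all features; filled points are above 2 times the random-probe level on all 6 arrays, and differences at open points can rest on signal near that of random probes. The NPR3 and C5orf23 features lie between 1.68 and 1.96, and the NPR2 features lie between -0.11 and 0.36.

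The heart peptide genes were at or near the random-probe level. The first NPPA feature (BC005893, chromosome 1, 11828355 to 11830427, hg18) read 59.7, 45.5 and 32.4 in shASPP2, against 76.4, 52.0 and 51.5 in shNon. The groups overlapped, and 1 of the 6 arrays, shNon array 1, was above 2 times the random-probe level.

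The second NPPA feature (NM_006172) read 26.8, 29.5 and 38.1 in shASPP2, against 29.0, 42.9 and 62.4 in shNon, below that mark on all arrays, and its groups overlapped too. NPPB (NM_002521, chromosome 1, 11840110 to 11841575, hg18), which begins 9682 bases beyond NPPA, read 30.3, 36.0 and 39.2 in shASPP2, against 26.3, 23.4 and 25.9 in shNon. The NPPB groups did not overlap, but all 6 values were below 2 times the random-probe level, so no fold is given. At this brightness the arrays do not show whether the cells made either transcript.

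NPPC, the gene for CNP, gave features that disagreed. The leading one (BC105065, chromosome 2, 232498338 to 232499282, hg18) read 240.0, 157 and 268 in shASPP2, against 174, 141 and 40.9 in shNon. The groups overlapped, and shNon array 3 alone was under 2 times the random-probe level. The log2 difference was 1.11 (SE 0.53, 95% interval -0.13 to 2.36), and it was 0.47 without shNon array 3.

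The second NPPC feature (NM_024409) read 60.4, 42.1 and 100.3 in shASPP2, against 109, 56.4 and 66.2 in shNon. The third (BC069120) read 43.2, 32.0 and 77.0 in shASPP2, against 50.9, 100.2 and 33.9 in shNon. Both overlapped between groups, with log2 differences of -0.22 (SE 0.37) and -0.23 (SE 0.46), and each was above 2 times the random-probe level on 1 shASPP2 and 1 shNon array. Both differences changed sign when 1 array was left out: without shASPP2 array 2 they were 0.07 and 0.05.

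Over the family, 2 of 14 features were past a limma adjusted p of 0.05 over all features, the first NPR3 feature and C5orf23, both higher in shASPP2. Among all features 0.138% passed in either direction and 0.0533% passed as higher. Groups did not overlap on 6 of 14 features, all higher in shASPP2, where 9.46% of all features were higher without overlap. Since NPR3 and C5orf23 were chosen on this contrast, nothing is read from these counts. The other 11 features had a median log2 difference of 0.28, from -0.45 to 1.11, with 6 above and 5 below 0. None was past the threshold, and 4 of the 11 were above 2 times the random-probe level on all arrays. The median and the signs thus rest in part on signal near that level. An unadjusted p under 0.05 was found for 2 of the 11, and for 11.4% of all features. The 2 were NPR1 and NPPB, whose differences are not given above because their signal is near the random-probe level. NPR1 and NPPB were also among the 6 features without overlap. Over all features the median was 0.01. The count of 2 features past the threshold was 0 when any single array was left out.

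The neighbourhood of NPR3 was examined next, since C5orf23 lies beside it. Within 1 Mb of NPR3 on chromosome 5 (hg18) the array holds 17 further features, of 8 gene names and 1 unnamed transcript. In limma 0 of the 17 passed over all features (background 0.138%), and 3 had an unadjusted p under 0.05, where 11.4% of all features did. Their median log2 difference was 0.10, against 0.01 for all features.

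SUB1, a transcriptional coactivator gene and the nearest on the lower side, had 4 features with differences of -0.23 (SE 0.22), -0.02 (SE 0.21), 0.26 (SE 0.31) and 0.38 log2 (SE 0.22). The limma adjusted p-values of SUB1 lay between 0.561 and 0.975. LOC340113, the nearest on the higher side, was at the random-probe level, with 35.0 ± 9.96 in shASPP2 and 35.2 ± 19.5 in shNon (SD, n = 3 each). ADAMTS12, a secreted metalloprotease gene named here after its values were seen, had the highest differences among the 17. They were 1.12 (SE 0.46) and 0.66 log2 (SE 0.23), with limma adjusted p-values of 0.422 and 0.356. The first was 0.62 without shNon array 3, and the second was 0.47 to 0.80 with each array omitted in turn. ZFR, also named after its values were seen, had 0.46 log2 (SE 0.19, limma adjusted p = 0.416). These were the 3 features with an unadjusted p under 0.05. ZFR and the second ADAMTS12 feature, 2 of the 17, were higher in shASPP2 without overlap, where 9.46% of all features were.

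**Figure D3:**
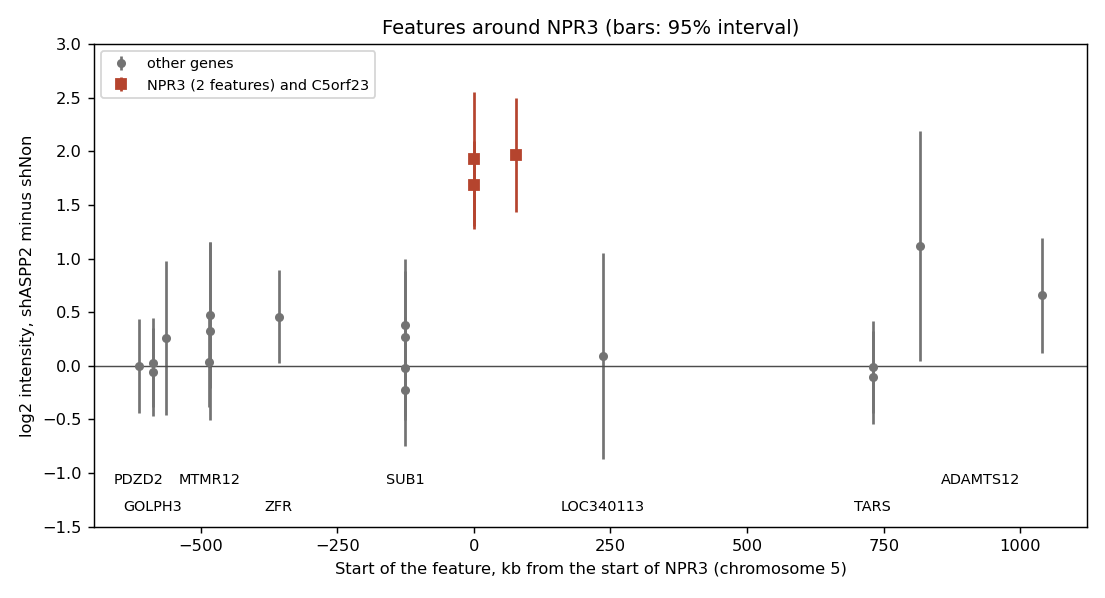
Log2 intensity in shASPP2 minus shNon, with 95% intervals, against the distance of each feature's start from the start of NPR3 in kb. NPR3 and C5orf23 (squares) lie between 1.68 and 1.96, and the 17 other features (circles) lie between -0.23 and 1.12.

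The rest of the pathway was described with 7 lists of genes, 49 in all, each read on its brightest feature. In limma 0 of 49 passed over all features, where 0.14% of genes read in the same way did. At an unadjusted p under 0.05 there were 3 of 49, where 11.7% of all such genes were. Groups did not overlap in 5 of 49, 1 higher and 4 lower in shASPP2, where 18.8% of all genes had no overlap. The median log2 difference was -0.01, against 0.01 for all genes.

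Of 8 genes for processing and breakdown of the peptides 0 passed, and 4 were above 2 times the random-probe level on all arrays. DPP4, a cell surface peptidase that trims BNP, was bright, at 4905 ± 914 in shASPP2 and 4904 ± 507 in shNon (SD, n = 3 each; log2 difference -0.01, limma adjusted p = 0.989). IDE, the insulin-degrading enzyme, which also cleaves natriuretic peptides, had a difference of 0.19 log2 (SE 0.19, limma adjusted p = 0.745). FURIN, a protease that cuts the BNP and CNP precursors, had -0.02 (SE 0.18). MME, the gene for neprilysin, was below 2 times the random-probe level on all arrays, as was MEP1B, a meprin subunit gene, (limma adjusted p = 0.729).

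Among 8 genes of other guanylyl cyclases and their peptide ligands 0 passed, and 0 were above 2 times the random-probe level on all arrays. The 2 with the smallest p were the retinal cyclase gene GUCY2D, with a limma adjusted p of 0.591, and the soluble cyclase subunit gene GUCY1A2, with a limma adjusted p of 0.646. GUCY2D was below 2 times the random-probe level on all arrays and GUCY1A2 on all but shNon array 3, so no difference is given. OSTN, whose product osteocrin binds NPR3, was also dim, at 43.1 ± 21.9 in shASPP2 and 28.5 ± 6.09 in shNon (SD, n = 3 each; limma adjusted p = 0.718).

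Downstream of cGMP, 0 of 6 kinase, substrate and channel genes passed. VASP, an actin regulator that cGMP-dependent kinase phosphorylates, was bright at 3011 ± 161 in shASPP2 and 3035 ± 216 in shNon (SD, n = 3 each; log2 difference -0.01). PRKG1, which encodes the type I kinase, was below 2 times the random-probe level on all arrays (limma adjusted p = 0.537). IRAG1, listed as MRVI1 on the array, encodes a substrate of that kinase and had 98.2 ± 24.0 in shASPP2 and 60.4 ± 12.0 in shNon (SD, n = 3 each; log2 difference 0.69, SE 0.25, limma adjusted p = 0.370). The IRAG1 groups overlapped, and shNon arrays 1 and 3 were below 2 times the random-probe level, so that the difference can rest on signal near it.

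Of 12 phosphodiesterase and exporter genes 0 passed, with 6 above and 6 below 0. The smallest p-values belonged to PDE1C (limma adjusted p = 0.361) and PDE10A (limma adjusted p = 0.370), which encode cyclic nucleotide phosphodiesterases. Both were lower in shASPP2 without overlap, at 29.6 ± 5.38 and 33.2 ± 5.55 in shASPP2 against 43.8 ± 5.16 and 55.6 ± 16.7 in shNon (SD, n = 3 each). PDE1C was below 2 times the random-probe level on all arrays and PDE10A on all but shNon array 3. The other features of both genes overlapped between the groups. PDE3B, a phosphodiesterase that cGMP inhibits, had 0.06 log2 (SE 0.20), and ABCC4, an exporter of cyclic nucleotides, -0.13 (SE 0.17), both at high signal.

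On the inhibitory G protein side of NPR3, 0 of 7 genes passed. GNAI2, an inhibitory alpha subunit, was at 3865 ± 513 in shASPP2 and 4175 ± 358 in shNon (SD, n = 3 each; log2 difference -0.12). The phospholipase C genes PLCB4 and PLCB1 had 0.38 (SE 0.26, limma adjusted p = 0.620) and -0.13 log2 (SE 0.16, limma adjusted p = 0.794). Of 7 transcription factors known to act on NPPA and NPPB in heart 0 passed. MEF2A was at -0.51 log2 (SE 0.23, limma adjusted p = 0.465). MEF2C was at 0.43 log2 (SE 0.41, limma adjusted p = 0.728), and at -0.05 without shNon array 3. Of the other MEF2C features, NM_002397 was higher in shASPP2 without overlap (limma adjusted p = 0.298), and BC026341 overlapped. On both, all shNon arrays were below 2 times the random-probe level, so no difference is given.

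**Figure D4:**
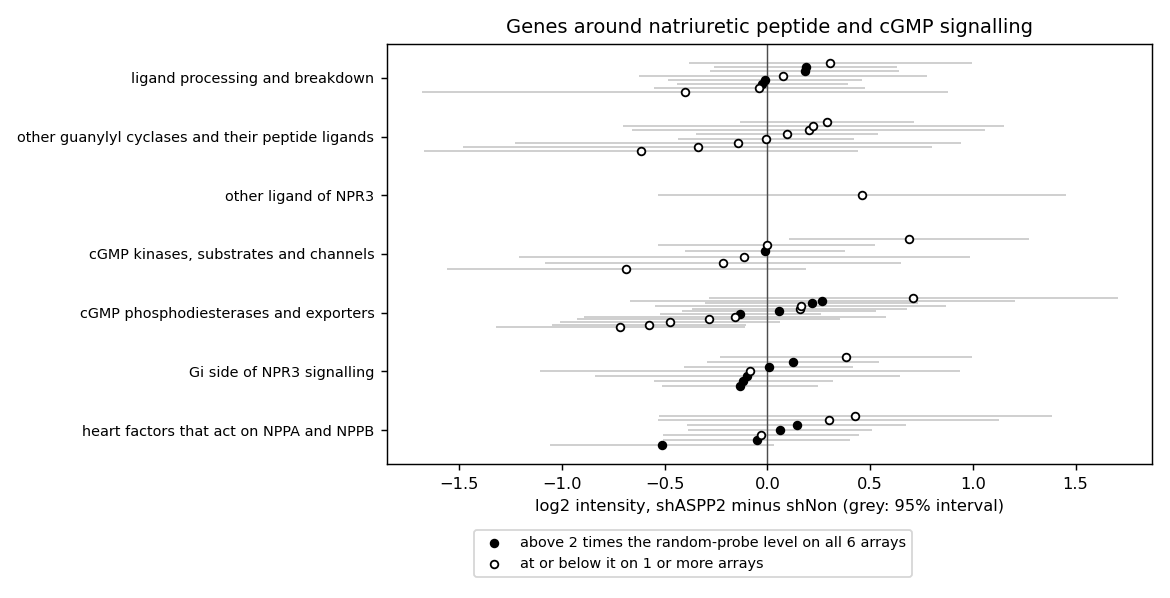
Log2 intensity in shASPP2 minus shNon for the leading feature of each of 49 genes in 7 lists, with 95% intervals in grey; filled points are above 2 times the random-probe level on all 6 arrays, and differences at open points can rest on signal near that of random probes. The points lie between -0.72 and 0.71.

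Markers of cells that are rich in NPR3 or in the peptides were read beside these values. Of 5 endothelial markers, CDH5 was above 2 times the random-probe level on some arrays only, and VWF, KDR and TEK were below it on all arrays. PECAM1 was the exception, with 1063, 815 and 1025 in shASPP2, against 1927, 1901 and 1769 in shNon (log2 difference -0.96, SE 0.18, limma adjusted p = 0.158, and 0.00123 with trend and robust variance). The summed endothelial level was 987 to 1220 in shASPP2 and 2025 to 2137 in shNon. PECAM1 made up most of that sum, and VWF and KDR averaged 49.5 ± 9.95 and 43.1 ± 13.9 in shASPP2 against 50.4 ± 17.3 and 40.3 ± 13.1 in shNon (SD, n = 3 each).

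None of 5 cardiomyocyte markers was above 2 times the random-probe level on all arrays, and their summed level was 170.3 to 239 in shASPP2 and 199.8 to 263 in shNon. Smooth muscle markers summed to 199.5 to 257 in shASPP2 and 242 to 311 in shNon, with MYH11 alone of 4 above that mark on all arrays. Of 5 fibroblast and stellate markers, COL1A1 and LUM were above it, and the sums were 475 to 632 in shASPP2 and 431 to 487 in shNon. Of 4 leukocyte markers CD68 was above it, and the sums were 3569 to 4149 in shASPP2 and 2706 to 3622 in shNon. Limma called 0 of these 23 markers over all features, where 0.14% of genes were called. An unadjusted p under 0.05 was found for 4 of them, against 11.7% of all genes. Among these, PECAM1, MYH11 and TNNT2 were lower in shASPP2, with TNNT2 near the random-probe level. Their part in the NPR3 values was not tested.

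Genes whose 6 values ran most like the first NPR3 feature were sought among 11958 gene names brighter than the median feature. The 5 with the highest Pearson r were BMF, a BH3-only apoptosis gene (r = 0.997), TIMP3, a metalloprotease inhibitor (0.996), SOCS2, a cytokine feedback inhibitor (0.996), SQLE, squalene epoxidase (0.995), and TFRC, the transferrin receptor (0.995). Among the members, r with that feature was 0.959 for C5orf23, 0.955 for the second NPR3 feature, 0.934 for NPR1 and 0.888 for NPPB, the last 2 from values near the random-probe level. For the NPR2 features r was 0.841, 0.634, 0.361 and -0.139, for NPPA -0.552 and -0.490, and for NPPC 0.537, -0.322 and -0.280. These correlations rest on 6 arrays in 2 groups and hold the gap between the groups. Their sizes of change differed, from 0.38 log2 for TFRC and 0.51 for TIMP3 to 2.28 for BMF and 2.40 for SOCS2.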

How the data were processed

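RNA of 6 samples was hybridised in 1 colour (Cy3) to NimbleGen arrays. The authors deposited 1 RMA intensity per feature and array on a linear scale, per the submitters' processing notes. Its version and settings: not given in the sources used here. Per the file headers, features carry hg18 positions, and 45031 of 45033 sum up 3 probes each. A row of 2508 random-sequence probes entered no test. The log2 values of all features entered 1 fit in limma 3.58.1 in R 4.3.3 (lmFit, eBayes), with group as the only term and no filter. P-values are two-sided, with Benjamini-Hochberg adjustment over all 45033 features. Differences are shASPP2 minus shNon with moderated standard errors. The fit was tested on simulated data.

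The members, lists and tests were chosen with earlier results of these data known. All member features were reported. Named beside them were TP53BP2, the genes past the threshold or else the 2 with the smallest p of each pathway list, the nearest neighbours of NPR3, and the 5 genes most correlated with NPR3. DPP4, FURIN, MME, VASP, PDE3B, ABCC4, GNAI2, PECAM1 and SPAG8 were added after their values were seen. One marker gene is not reported here by name. The leading feature of a gene has the highest mean log2 intensity. Promoter windows came from RefSeq on GRCh38.p14, and no coordinates were converted.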

Additional observations from a re-analysis of the deposited data

How the results depend on the processing

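The log2 difference of the first NPR3 feature ranged over 1.61 to 1.75 with each array omitted in turn and over 1.65 to 1.69 under the other alternatives. For C5orf23 the ranges were 1.82 to 2.15 and 1.93 to 1.99. The count of 2 member features past the threshold was 0 with the replicate block and 0 to 0 with each array omitted in turn. These fits have fewer samples or more terms. It was 3 after dim features were removed (9 of 14 features kept) and with trend and robust variance, where the second NPR3 feature was added. The deviations of same-numbered arrays from their group means correlated at 0.056, -0.076 and -0.126, so the shared numbers were not read as pairs. Of all features 62 passed, 200 after removal of dim features, 952 with trend and robust variance, 24 with 1 feature per gene, 0 with the replicate block and 0 to 17 with an array left out. TP53BP2 passed with trend and robust variance (-1.11 log2, limma adjusted p = 0.0225); its adjusted p was 0.0225 to 0.589 over the alternatives. The counts of 0 for the pathway genes and for the features near NPR3 stayed at 0 under all 14 alternatives. For the 48 other named results, 623 of 639 values stayed on their side of the threshold. The exceptions were 10 calls lost for BMF and SOCS2, with the replicate block or an array omitted, and 6 gained for the second NPR3 feature, PECAM1, TIMP3 and SQLE with dim features removed or with trend and robust variance. The sign of 13 of the 48 differences turned under at least 1 alternative, none of them past the threshold. Signal near the random-probe level limits what can be read for NPPA, NPPB and NPR1.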
